A study of Rattus norvegicus with 4 samples.

Results

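S100a8, S100a9, Mmp8 and G0s2 are described here as 4 genes of neutrophils in dissociated rat hippocampus, out of 32623 genes in the count matrix. Their identifiers in the matrix are ENSRNOG00000011557 (S100a8), ENSRNOG00000011483 (S100a9), ENSRNOG00000009907 (Mmp8) and ENSRNOG00000006019 (G0s2). They were chosen by symbol, and their level was followed in neutrophils, in the other cell types of the tissue and in each of the 4 barcode sets of the matrix. The tissue was hippocampus of wild type male adult Sprague Dawley rats aged 10 to 12 months. The series lists 4 titled samples with 1 library each. NC is a negative control, MCAO had the middle cerebral artery blocked on 1 side (a stroke model), and DEPR and MD are both described by chronic stress, with MD left unexplained. The series' design text instead speaks of 20 rats in 2 groups of 10, all with MCAO and 1 group then stressed, with hippocampi of 5 rats per group. Barcodes carry the suffixes 1 to 4, called sets 1 to 4 below, and none of the labels or files used here links a set to a titled sample. Each set's own value is therefore given, no set is called a group, no difference between NC, MCAO, DEPR and MD was computed, and no statistical test was possible.

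Neutrophils are short-lived granulocytes that leave the blood within hours of tissue injury and are among the earliest blood cells to reach brain tissue after arterial occlusion. S100a8 and S100a9 are small calcium-binding proteins that pair into calprotectin, an abundant cytosolic protein of neutrophils. Once released, the pair binds zinc and acts as an alarmin, a danger signal read by the receptors Tlr4 and Ager. Mmp8 is neutrophil collagenase, an enzyme that cuts fibrillar collagen and is stored in specific granules. G0s2 is an inhibitor of the lipase Pnpla2 (adipose triglyceride lipase). By this background Mmp8 is the granule gene, S100a8 and S100a9 are the alarmin genes, and G0s2 is neither.

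The promoters of 3 of the 4 genes are shown because the genes are compared below as high in 1 cell type, and S100a9, Mmp8 and G0s2 turn out to differ in how far they are limited to it. Each is the 250 bases before the annotated start in RefSeq on GRCr8, 5′ to 3′ on the gene's strand. Capitals mark matches on either strand to a TATA box (TATAAA), to a loose C/EBP pattern (TTNCNNAA) and to a PU.1 core (GAGGAA). C/EBP factors and PU.1 are regulators of the granulocyte lineage. S100a9 is at chr2:178490623-178490872 on the minus strand, Mmp8 at chr8:13008640-13008889 on the plus strand and G0s2 at chr13:107335949-107336198 on the minus strand.
S100a9: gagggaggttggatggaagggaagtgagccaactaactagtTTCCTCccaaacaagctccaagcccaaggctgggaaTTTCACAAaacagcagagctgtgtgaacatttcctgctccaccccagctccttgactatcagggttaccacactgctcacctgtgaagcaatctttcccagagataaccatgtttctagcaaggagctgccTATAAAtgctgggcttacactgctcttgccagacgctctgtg
Mmp8: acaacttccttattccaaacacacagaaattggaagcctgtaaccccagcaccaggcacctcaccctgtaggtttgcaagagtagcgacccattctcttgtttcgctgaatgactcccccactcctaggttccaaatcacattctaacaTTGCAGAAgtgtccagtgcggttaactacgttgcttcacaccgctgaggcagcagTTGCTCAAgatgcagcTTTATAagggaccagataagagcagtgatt
G0s2: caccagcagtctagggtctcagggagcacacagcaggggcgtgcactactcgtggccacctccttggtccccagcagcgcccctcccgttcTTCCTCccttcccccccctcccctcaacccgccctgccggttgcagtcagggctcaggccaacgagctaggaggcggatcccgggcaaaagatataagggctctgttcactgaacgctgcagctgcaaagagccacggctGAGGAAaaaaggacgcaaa
The S100a9 promoter held 1 TATA box at -42, 1 C/EBP match at -173 and 1 PU.1 core at -209, counted from the start. The Mmp8 promoter held 1 TATA box at -30 and 2 C/EBP matches at -101 and -46. The G0s2 promoter held 2 PU.1 cores, at -159 and -19. Among 33469 RefSeq promoters of the same length, 12.9% held the TATA box, 37.2% the C/EBP motif and 23.3% the PU.1 core, so such matches are common and describe letters only.

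The matrix held 31638 barcodes, of which 28879 were kept for having at least 500 UMIs (unique molecular identifiers, which count captured transcripts), 300 genes or more and no more than 20% mitochondrial UMIs. Kept barcodes per set ranged from 5315 to 8760, their UMIs from 35030108 to 53072103 and the median UMIs per barcode from 4574.5 to 6029. A barcode was given a type when at least 3 markers of that type had 2 or more UMIs. Barcodes with markers of unrelated types were called mixed, and those with too few markers ungated. By this rule 12112 were microglia, 7755 oligodendrocytes, 2726 endothelial cells, 665 T cells, 455 pericytes, 2127 mixed and 1992 ungated. In all, 96 barcode sequences occurred in more than one set. None of these pairs had a neutrophil in both sets, and 1 pair had a neutrophil in one.

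Neutrophils were defined as barcodes with at least 10 UMIs of S100a8 and at least 10 of S100a9. There were 109, or 0.377% of kept barcodes (exact 95% Clopper-Pearson interval 0.310 to 0.455%). Sets 1 to 4 held 25, 53, 8 and 23 of them, or 0.381, 0.642, 0.151 and 0.263% of their barcodes. Set 2 had the largest share, with an interval of 0.482 to 0.839%, and set 3 the smallest, with 0.0650 to 0.296%. These 2 intervals do not overlap. All intervals in this text are exact at 95% and cover counting error only, since nothing here has a replicate.

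Most of the gated barcodes also had neutrophil markers that the gate did not use. Of the 109 barcodes, 93 had a UMI of at least 3 of the other neutrophil markers and none lacked all of them. By set, these were 22 of 25, 48 of 53, 7 of 8 and 16 of 23. The 5 gated barcodes that also met the monocyte gate had 3 or more of these markers too, with no UMI of Retnlg. A monocyte-gated barcode just outside the gate had 4, so this count does not separate neutrophils from monocytes. Clec4d, a C-type lectin receptor of myeloid cells, was found in 97 of the 109 barcodes, Trem1, an amplifier of myeloid activation, in 82, Csf3r, the receptor for granulocyte colony-stimulating factor, in 68, and Il1r2, the decoy receptor for interleukin 1, in 67. Of all 753 UMIs of Retnlg, a resistin-like gene, 749 lay in the gate. The chemokine receptor Cxcr2 was found in 25 barcodes, with 31 of its 41 UMIs in the gate. Of the UMIs of Clec4d, Trem1, Csf3r and Il1r2, 72.3, 54.5, 6.11 and 22.7% lay in the gate, so Csf3r and Il1r2 were mostly outside it. Fpr1, Fpr2, Cd177, Ngp and Lcn2 were found in 4, 11, 5, 2 and 11 of the 109 barcodes. The granule genes Ltf, Mpo and Ctsg and the histamine enzyme Hdc had no UMI in the 109 barcodes, where 0 of 483792 UMIs allows up to 6.20 CPM (UMIs per 1000000 UMIs), taking 3 counts as the limit.

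Some gated barcodes also carried markers of another cell type. Of the 109, 18 met another gate: 6 microglia, 5 monocyte, 4 oligodendrocyte, 1 endothelial and 2 mixed. By set, these were 6, 11, 1 and 0. Their median was 8527.5 UMIs against 2367 in the 91 barcodes that met the neutrophil gate alone, and Scrublet, a doublet caller, marked 3 of the 18, all with oligodendrocyte markers, and 0 of the 91. In the 109 barcodes the summed microglial markers stood at 10.99% of their level in microglia, with 1044 to 3037 CPM over the sets and all 12 markers found. The monocyte markers stood at 15.96% of their level in monocytes, with 49.7 to 3390 CPM over the sets and 4 of 10 at 0. In the 91 barcodes these levels were 5.48% and 3.16%, and the oligodendrocyte and endothelial levels 0.983% and 0.512%. Because the 18 barcodes are deep and carry markers of other types, values without them are given where they move a result. Whether they were doublets, neutrophils with free RNA or cells of another type with S100a8 and S100a9 was not tested.

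S100a8 and S100a9 were the most abundant members and lay almost wholly in neutrophils, which follows in part from the gate and is a description. In the kept barcodes of sets 1 to 4, S100a8 had 4596, 11881, 966 and 2232 UMIs, of which 4492, 11734, 914 and 2124 were in neutrophils. S100a9 had 8955, 21606, 1627 and 3932 UMIs, of which 8742, 21295, 1530 and 3748 were in neutrophils. Set 2 held the most UMIs of both genes, and it also held the most neutrophils. Over all sets 97.9% of S100a8 UMIs (97.7 to 98.1%) and 97.8% of S100a9 UMIs (97.6 to 97.9%) came from 0.377% of the barcodes.

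Per neutrophil, S100a8 ranged from 10 to 894 UMIs with a median of 115, and S100a9 from 11 to 1726 with a median of 229. The S100a8 medians were 150, 159, 66 and 44 UMIs in sets 1 to 4, and the S100a9 medians were 319, 308, 62.5 and 90. By these medians, not scaled to depth, sets 1 and 2 were higher and sets 3 and 4 lower for both genes, while single barcodes overlapped between all sets. Set 4, for example, ran from 10 to 709 UMIs of S100a8 and set 1 from 10 to 507. The total depth of neutrophils was also higher in sets 1 and 2, with medians of 2915, 2965, 2260.5 and 1935 UMIs per barcode. The plot of the members by set shows every barcode.

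**Figure D1:**
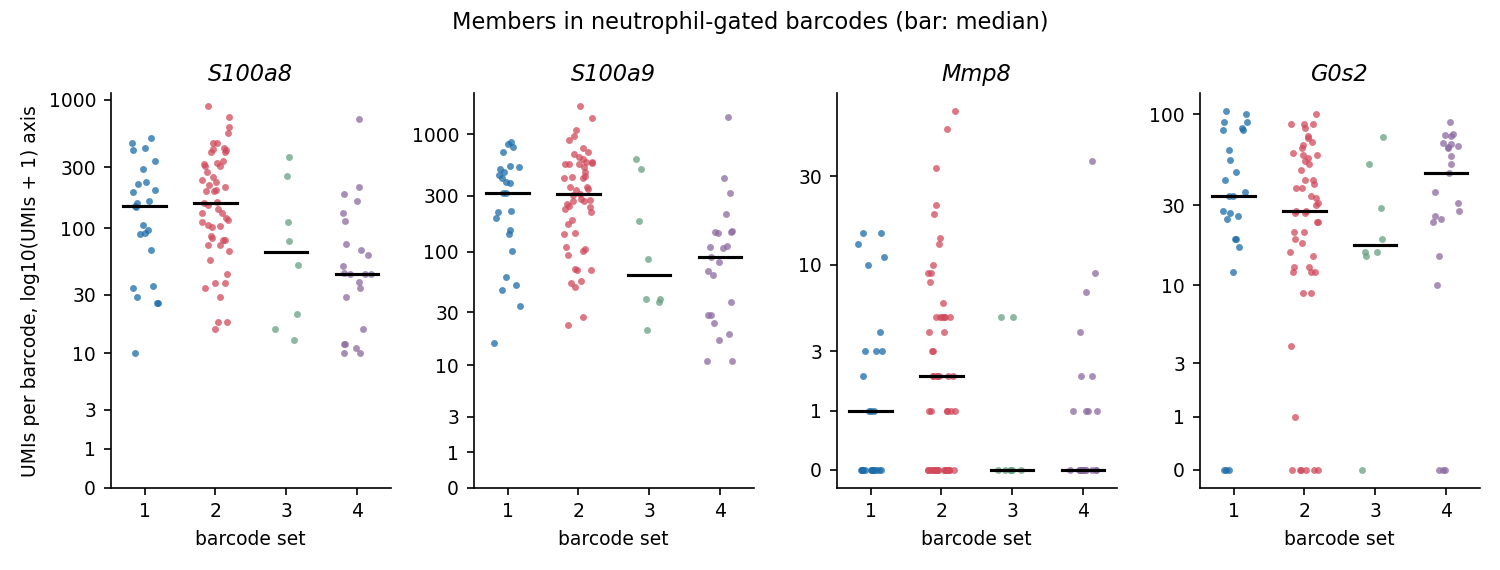
UMIs per barcode of each member (log10(UMIs + 1) axis) in the 109 neutrophil-gated barcodes of sets 1 to 4, 1 point per barcode with a bar at the median. S100a8 medians were 150, 159, 66 and 44 UMIs and Mmp8 medians 1, 2, 0 and 0, while G0s2 had its highest median, 46 UMIs, in set 4.

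Of the 2 alarmin genes S100a9 had more UMIs in the sum of every set, with a wide spread between barcodes. S100a9 had 1.83 UMIs per S100a8 UMI in neutrophils (1.80 to 1.87), with 1.95, 1.81, 1.67 and 1.76 in sets 1 to 4. The interval of set 1, 1.88 to 2.02, lay above those of set 2 (1.77 to 1.86), set 3 (1.54 to 1.82) and set 4 (1.67 to 1.86). S100a9 exceeded S100a8 in 99 of 109 barcodes, and the median ratio per barcode was 1.79, from 0.324 to 10.2. Across the 109 barcodes, scaled to UMIs per 10000, the Spearman correlation of S100a8 with S100a9 was 0.925, and it was 0.912, 0.899 and 0.872 within sets 1, 2 and 4. These correlations are over barcodes that share libraries and depth and are a description.

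The gate has a threshold, and values on both sides of it lay close together. Just inside, 8 barcodes had 10 to 14 UMIs in the lower of the 2 genes, 6 of them in set 4. Just outside, 12 barcodes had 5 to 9 UMIs in the lower gene. There were also 12 barcodes, many of them the same ones, with 10 or more UMIs of 1 gene only. Examples, picked for their unequal counts, were a microglia-gated barcode of set 1 with 48 S100a8 and 7 S100a9 UMIs and a border-macrophage-gated barcode of set 1 with 3 S100a8, 91 S100a9 and 80 G0s2 UMIs.

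**Figure D2:**
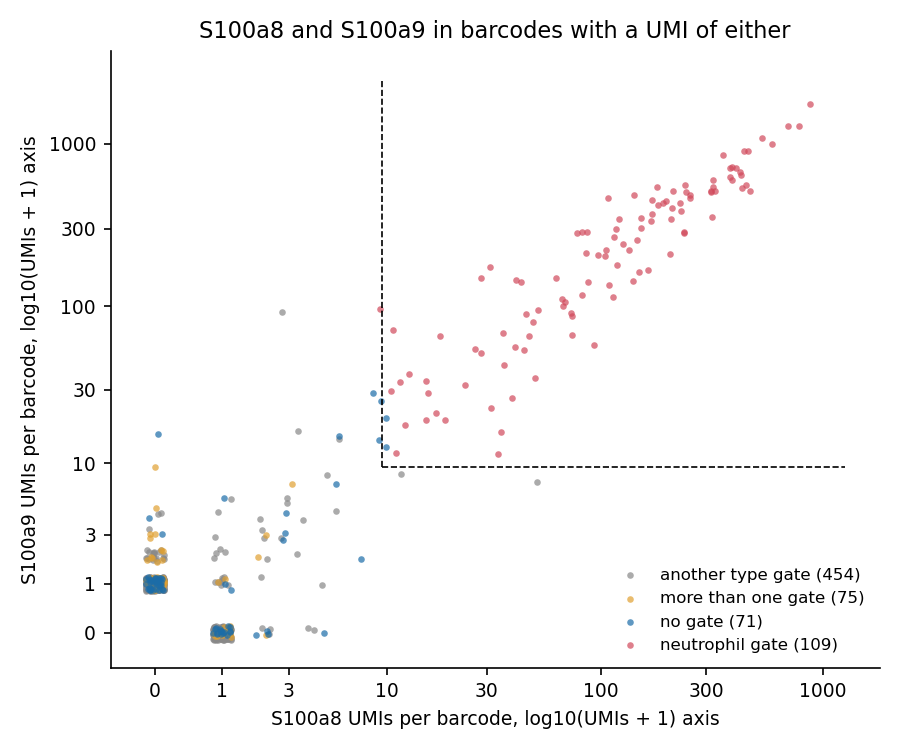
S100a8 against S100a9 UMIs per barcode (both axes log10(UMIs + 1), points jittered) for barcodes with a UMI of either, with dashed lines at the gate of 10 UMIs each. The 109 neutrophils form 1 diagonal band up to 894 and 1726 UMIs, and most other barcodes sit at 0 or 1 UMI.

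Mmp8 was rare and had the largest share of its UMIs in neutrophils of the 4 genes, and the gate did not use it. Of its 482 UMIs in kept barcodes, 480 lay in neutrophils (99.6%, 98.5 to 99.9%), and the other 2 were single UMIs in 2 barcodes of set 2. Sets 1 to 4 had 82, 324, 10 and 64 Mmp8 UMIs in neutrophils and 0, 2, 0 and 0 outside. Outside neutrophils its level was 0.0114 CPM (0.00138 to 0.0412) against 992 CPM inside (905 to 1085). It was detected in 60 of 109 neutrophils, with 13 of 25, 35 of 53, 2 of 8 and 10 of 23 in sets 1 to 4. The shares were 52, 66.04, 25 and 43.5%, and their intervals overlap between all sets.

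Neutrophils with an Mmp8 UMI were also those with more S100a8 and S100a9. The 60 barcodes with Mmp8 had medians of 219.5 S100a8 and 425 S100a9 UMIs, and the 49 without had 44 and 86. The order was the same in each set: S100a8 medians were 230 against 92 in set 1, 238 against 70.5 in set 2, 309.5 against 36.5 in set 3 and 95 against 34 in set 4. Depth differed less, with medians of 2760 and 2185 UMIs per barcode. Per 10000 UMIs the Spearman correlation of Mmp8 was 0.688 with S100a8, 0.663 with Retnlg, 0.478 with the antimicrobial granule peptide Camp and 0.412 with the gelatinase Mmp9. G0s2 did not share this pattern: its median was 30.5 UMIs with Mmp8 and 31 without.

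A few barcodes carried most of the gate's UMIs of Ngp, Camp and Lcn2, specific-granule genes that are known to be made mainly by maturing neutrophils in bone marrow. Most Lcn2 lay outside the gate, which held 89 of its 1913 UMIs in kept barcodes (4.65%). One set 4 barcode of 6501 UMIs held 709 S100a8, 1411 S100a9, 36 Mmp8, 213 Camp, 320 Ngp and 64 Lcn2 UMIs, with 0 UMIs of G0s2 and 0 of Il1b. This was 320 of the 328 Ngp UMIs and 213 of the 346 Camp UMIs in the gate. A set 2 barcode of 6386 UMIs had the highest S100a8 and S100a9 of all, 894 and 1726 UMIs, with 21 Mmp8, 37 Camp, 8 Ngp and 13 G0s2 UMIs. The highest Mmp8 count, 65 UMIs, was in another set 2 barcode with 9 Camp and 0 Ngp UMIs. These barcodes were picked after their values were seen.

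G0s2 was abundant in neutrophils but not limited to them. It had 2334, 3427, 1191 and 4141 UMIs in kept barcodes of sets 1 to 4, with 1117, 1867, 221 and 1002 in neutrophils, so 47.9, 54.5, 18.6 and 24.2% of its UMIs were theirs. Sets 1 and 2 had the higher shares, and sets 3 and 4 the lower. Over all sets the share was 37.9% (37.0 to 38.8%). It was found in 96 of 109 neutrophils (88.1%), at 88.0, 88.7, 87.5 and 87.0% in sets 1 to 4, with median counts of 34, 28, 17.5 and 46 UMIs. Its highest median was in set 4, where S100a8 had its lowest.

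G0s2 moved more closely with Il1b, the gene of interleukin 1 beta, than with the other members. Per 10000 UMIs its Spearman correlation over the 109 neutrophils was 0.670 with Il1b, a gene added after values were seen, and 0.608, 0.608 and 0.603 within sets 1, 2 and 4. With S100a8 it was 0.101 and with Mmp8 -0.124. In the 91 barcodes that met no other gate these were 0.564, -0.182 and -0.267, so the sign with S100a8 turned. Within sets 1, 2 and 4 the value with S100a8 was 0.222, 0.364 and -0.0861. Of the 13 neutrophils with no G0s2 UMI, 5 were the 5 barcodes that also met the monocyte gate, and another was the Ngp-rich barcode of set 4. The plot of the members against each other shows the band of S100a8 with S100a9 and the lack of one with G0s2.

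**Figure D3:**
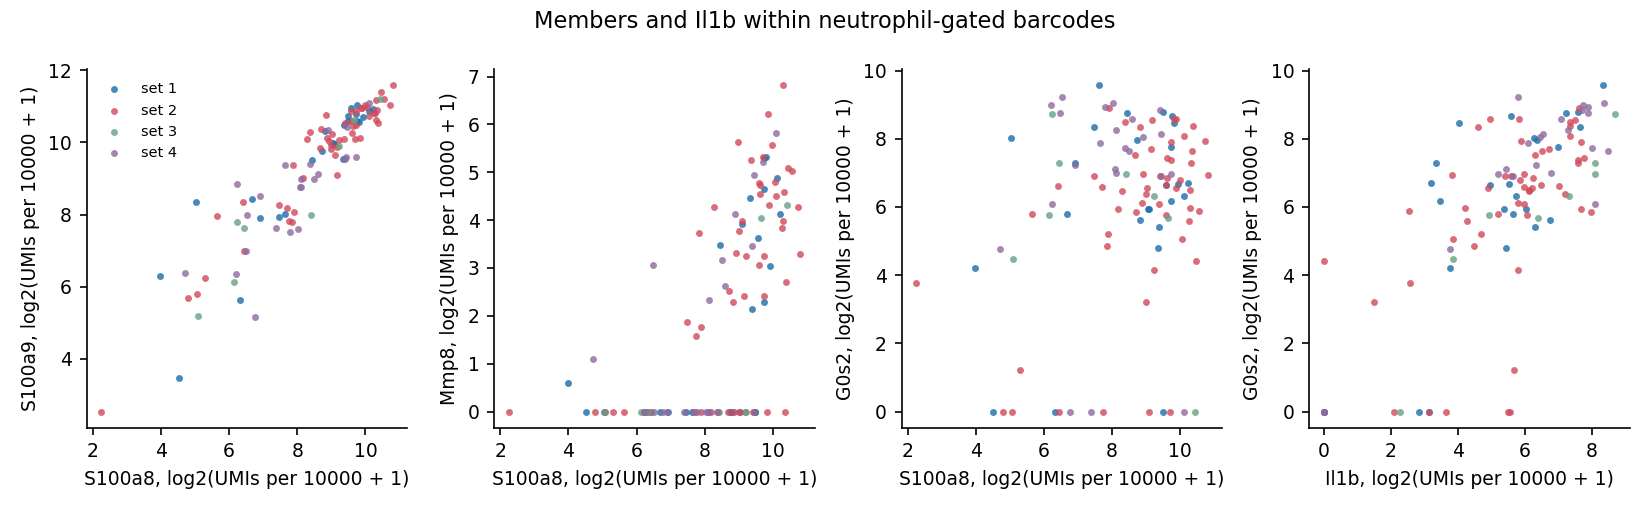
S100a9, Mmp8 and G0s2 against S100a8, and G0s2 against Il1b, as log2(UMIs per 10000 + 1) in the 109 neutrophil-gated barcodes, coloured by set. Spearman correlations over all barcodes were 0.925, 0.688, 0.101 and 0.670 from left to right.

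Summed CPM in neutrophils differed at least 2-fold between the highest and lowest set for all 4 members, but so it did for most genes. For S100a8, S100a9 and G0s2, which set was lowest rested on single deep barcodes, while Mmp8 stayed lowest in set 3. The CPM of S100a8 was 35253, 46271, 22719 and 33957 in sets 1 to 4, highest over lowest 2.04 (1.90 to 2.18). S100a9 was at 68607, 83974, 38031 and 59920.1 CPM, a ratio of 2.21 (2.10 to 2.33). Set 2 was highest and set 3 lowest for both by this sum. Mmp8 was at 644, 1278, 249 and 1023 CPM, a ratio of 5.14 (2.76 to 10.8) resting on 10 UMIs in set 3. G0s2 was at 8766, 7362, 5493 and 16019 CPM, highest in set 4, a ratio of 2.92 (2.52 to 3.39). Of 472 genes with at least 50 UMIs in the 2 sets compared, 69.1% were this far apart.

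In set 3, 1 of the 8 barcodes held 24289 of the 40230 UMIs, with 80 of S100a8, 86 of S100a9, 0 of Mmp8 and 52 of G0s2. Without it set 3 was at 52318 CPM of S100a8 and 90584 of S100a9, the highest of the sets, set 4 became the lowest, and the ratios were 1.54 and 1.51. Mmp8 in set 3 was then at 627 CPM, still the lowest, with a ratio of 2.04, and G0s2 at 10602 CPM, above sets 1 and 2, with a ratio of 2.18. With the deepest barcode of every set left out, S100a8 and S100a9 were highest in set 2 and lowest in set 1, with ratios of 1.38 and 1.30. Where each barcode counted equally, both were highest in set 2 and lowest in set 4. Set 4 was the highest for G0s2 and set 2 for Mmp8 in each of these versions. No order of the sets is therefore read for S100a8 and S100a9.

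The levels also depended on the barcodes with markers of other cells. In the 91 barcodes of the neutrophil gate alone, S100a8 stood at 61219 CPM against 39819 in all 109, S100a9 at 112883 against 72996, Mmp8 at 1442 against 992 and G0s2 at 13881 against 8696. The ratios of highest to lowest set were 3.53, 3.79 and 8.05 for S100a8, S100a9 and Mmp8, each set 2 over set 3, and 3.41 for G0s2, set 1 over set 3. The barcode of 24289 UMIs is among these 91. Without it the ratios were 2.497, 2.57, 2.79 and 1.59, with set 4 lowest for S100a8 and S100a9. For G0s2 the highest set was set 1 in both, at 18809.9 CPM against 16019 in set 4. In set 2, 1 barcode with microglial markers, left out here, held 47893 of the 253591 neutrophil UMIs.

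S100a8 and S100a9 were found at low levels in every common cell type. Outside neutrophils, S100a8 stood at 2.34 CPM (2.12 to 2.58) and S100a9 at 4.59 CPM (4.28 to 4.92), against 39819 and 72996 CPM inside. In microglia, 0.801% of barcodes had an S100a8 UMI and 1.24% an S100a9 UMI, at a median depth of 4851.5 UMIs. In oligodendrocytes, which are not known to make either gene, the shares were 0.542% and 1.25% at a median depth of 5559 UMIs, and in endothelial cells 0.587% and 1.10% at 4163. For S100a9 these intervals overlapped (1.05 to 1.45% in microglia, 1.02 to 1.52% in oligodendrocytes and 0.744 to 1.57% in endothelial cells). The pooled S100a9 shares of microglia and endothelial cells thus did not stand apart from that of oligodendrocytes. Those of pericytes (3.08%, 1.69 to 5.11%), ungated (2.56%, 1.91 to 3.35%) and mixed barcodes (2.63%, 1.99 to 3.41%) stood above it. Median depths of these were 2788, 1528 and 9504 UMIs, so mixed barcodes were the deeper ones. T cells, at 0.602% (0.164 to 1.53%), did not, and 3 of 10 monocytes had an S100a9 UMI. Another 5 barcodes that met the monocyte gate were counted as neutrophils, so the monocyte share is cut by the gate itself. The S100a8 share in microglia, 0.650 to 0.976%, overlapped the oligodendrocyte interval of 0.391 to 0.731%. With each barcode thinned to 1000 UMIs, shares fell to 0.251% and 0.398% in microglia, 0.106% and 0.185% in oligodendrocytes and 0.118% and 0.235% in endothelial cells. The thinned intervals of microglia and oligodendrocytes overlapped for both genes, though the S100a9 values were then in another order. Thinned S100a9 shares were 1.60% (0.645 to 3.27%) in pericytes and 1.34% (0.782 to 2.13%) in ungated barcodes, still above oligodendrocytes (0.101 to 0.310%). In mixed barcodes the share was 0.0945% (0.0114 to 0.341%), no longer above them. The sets differed too. Endothelial cells had 2.62, 4.24, 2.36 and 5.93 CPM of S100a9 in sets 1 to 4 and oligodendrocytes 1.10, 7.96, 1.44 and 0.592, so endothelial cells were above oligodendrocytes in sets 1, 3 and 4 and below them in set 2. In set 4 the intervals were apart. There 6 endothelial barcodes had an S100a9 UMI (0.631%, 0.232 to 1.37%), a share that overlapped the 0.340% (0.147 to 0.669%) of oligodendrocytes, so the CPM rested on few barcodes.

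By CPM over all sets, S100a8 was ordered neutrophils, monocytes at 292 (10 barcodes only), ungated barcodes at 7.31, pericytes at 6.62, border macrophages at 5.07, microglia at 2.55, B cells at 1.86, endothelial cells at 1.83, oligodendrocytes at 1.06, ependymal cells at 1.03, smooth muscle at 0.412 and T cells at 0.328. For both genes the monocyte level leaves out the 5 barcodes with monocyte markers that the neutrophil gate took for their S100a8 and S100a9. The intervals of ungated barcodes, pericytes and border macrophages overlapped each other. Those of microglia (2.16 to 2.98) and endothelial cells (1.21 to 2.64) overlapped. Those of endothelial cells and oligodendrocytes (0.787 to 1.397) overlapped too, and B cells and the types below oligodendrocytes rested on at most 3 UMIs each. The microglia interval lay above that of oligodendrocytes, with 48 of the 155 microglial UMIs in 1 barcode. With barcodes of 3 or more UMIs of either gene left out, microglia had 95 S100a8 UMIs in 12104 barcodes and oligodendrocytes 36 in 7749. The order was not the same in each set: endothelial cells were above microglia in sets 2, 3 and 4 (4.24 against 3.75, 0.884 against 0.730 and 3.51 against 1.04 CPM), and microglia led in set 1, where 48 of their 58 UMIs were in 1 barcode. No S100a8 UMI was found in NK cells (0 of 77 barcodes, which allows a share of up to 3.90%), red cells (0 of 104, up to 2.88%), oligodendrocyte precursors (OPCs, 0 of 32, up to 9.38%) or astrocytes (0 of 9, up to 33.3%). S100a9 was at 151 CPM in monocytes, 118 in border macrophages, 16.9 in pericytes, 14.2 in ungated barcodes and 3.72, 3.01 and 2.80 in endothelial cells, microglia and oligodendrocytes. Below these came smooth muscle at 1.65, ependymal cells at 1.54, T cells at 1.31, B cells at 1.24 and red cells at 1.17, each on at most 4 UMIs, and NK cells, OPCs and astrocytes had none. The intervals of endothelial cells, microglia and oligodendrocytes overlapped, and 91 of the 93 S100a9 UMIs of border macrophages were in 1 barcode.

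**Figure D4:**
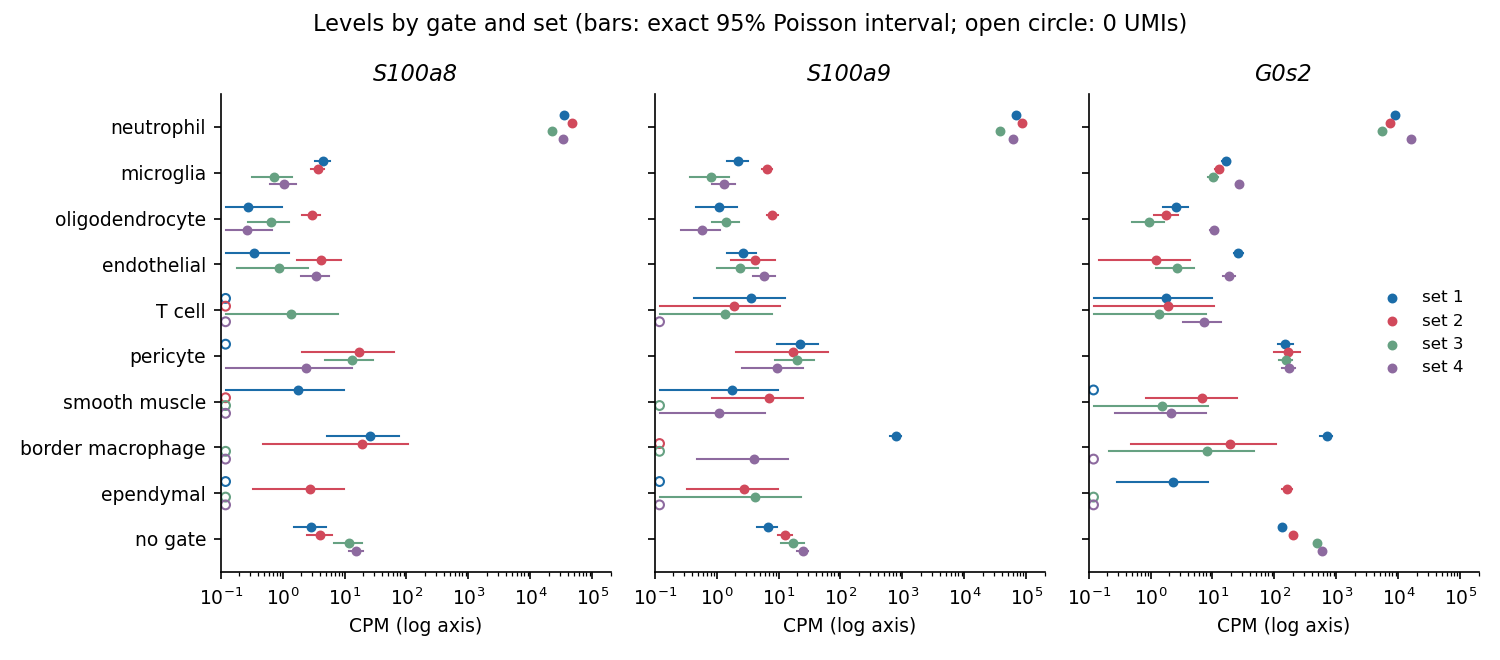
CPM (log axis) of S100a8, S100a9 and G0s2 in each gate and set, with exact 95% Poisson intervals and open circles at 0 UMIs. In neutrophils S100a8 ranged from 22719 to 46271 CPM over the sets, against 0.263 to 4.47 CPM in microglia and oligodendrocytes, while ungated barcodes reached 578 CPM of G0s2 in set 4.

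The UMIs outside neutrophils came in 2 forms. Barcodes with 3 or more UMIs were few, 28 for S100a8 and 41 for S100a9, but held 46.5% of the outside S100a8 UMIs and 49.1% of the outside S100a9 UMIs. The rest were mostly single UMIs, in 192 of 234 barcodes for S100a8 and 344 of 418 for S100a9. Of barcodes with 3 or more S100a8 UMIs 12 were ungated and 1 was mixed, and for S100a9 14 and 7.

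After barcodes with 3 or more UMIs of either gene were left out, the low level was highest in set 2 in microglia, oligodendrocytes and endothelial cells. In microglia S100a9 was at 1.70, 5.57, 0.548 and 0.986 CPM in sets 1 to 4, and in oligodendrocytes at 1.10, 5.18, 1.44 and 0.592. In set 2 the interval was 4.55 to 6.75 CPM in microglia and 3.98 to 6.63 in oligodendrocytes, above the intervals of the other 3 sets in both types. Set 2 also held the most neutrophil UMIs of S100a9, 21295 against 8742, 1530 and 3748. Endothelial cells were at 2.62, 3.03, 2.36 and 0.879 CPM with overlapping intervals. The proportion of S100a9 to S100a8 among these low barcodes was 1.95 (1.64 to 2.31), an interval that holds the 1.83 of neutrophils. It was 1.58 (1.21 to 2.06) in microglia, 2.72 (1.84 to 4.11) in oligodendrocytes and 2.29 (1.19 to 4.64) in endothelial cells. The intervals of microglia and endothelial cells hold the 1.83 of neutrophils. That of oligodendrocytes lies just above 1.83, though it overlaps the neutrophil interval of 1.80 to 1.87. The parts of free RNA and of doublets in these UMIs were not tested.

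Of genes with at least 50 UMIs in the highest and lowest set together, 14.9% in microglia, 9.11% in oligodendrocytes, 13.9% in endothelial cells and 35.1% in ungated barcodes were at least 2-fold apart between the highest and lowest set. In microglia S100a8, S100a9 and G0s2 were all apart, by 6.12 (2.91 to 14.8), 7.89 (4.02 to 17.7) and 2.56 (2.08 to 3.17), the S100a8 value resting on the barcode of set 1 with 48 UMIs. In oligodendrocytes S100a9 was apart by 13.4 (6.79 to 30.3), set 2 over set 4, and G0s2 by 11.02 (6.14 to 21.8), set 4 over set 3, where 4 barcodes of set 4 held 122 of its 161 UMIs. In endothelial cells G0s2 alone could be measured and was apart by 21.7 (5.90 to 181), set 1 over set 2, and 3 barcodes of set 1 had 10 or more of these UMIs each. In ungated barcodes S100a8, S100a9 and G0s2 were apart by 5.32, 3.67 and 4.39, each set 4 over set 1. In set 1, 1 barcode held 26 of the 30 S100a9 UMIs, and in set 4, 3 barcodes had 10 or more each. With barcodes of 3 or more UMIs of either gene left out, set 4 kept 6 of 54 S100a8 and 7 of 86 S100a9 UMIs. Set 2 then had the most, 13 and 23. Mmp8 was too rare to measure in any of these types.

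G0s2 outside neutrophils did not share the proportions of neutrophils. It had 0.218 UMIs per S100a8 UMI in neutrophils (0.211 to 0.226) but 16.8 outside (15.2 to 18.6), and 6.74 in microglia, 4.28 in oligodendrocytes and 41.1 in ungated barcodes. Its level was 159 CPM in pericytes (138 to 181.6), with a UMI in 29.5% of barcodes and 151, 163, 154 and 170.5 CPM in sets 1 to 4. Pericytes, which wrap capillaries, were thus even across the sets, and no pericyte had more than 6 UMIs. OPCs were at 227 CPM with a UMI in 13 of 32 barcodes, and astrocytes at 147 CPM with 5 of 9. These shares compare with 1.19% in microglia, 1.08% in oligodendrocytes, 2.13% in endothelial cells and 1.504% in T cells at depths of 4851.5, 5559, 4163 and 4009 UMIs, against 2788 in pericytes. By CPM the order over all sets was neutrophils, monocytes at 736 (61 of 68 UMIs in 1 barcode), ungated barcodes at 300.3, OPCs, pericytes, astrocytes, border macrophages at 105, ependymal cells at 62.1, B cells at 29.1, microglia at 17.1, endothelial cells at 15.99, oligodendrocytes at 4.54, T cells at 3.94, NK cells at 3.19 and smooth muscle at 2.06. The intervals of OPCs, pericytes and astrocytes overlapped, as did those of microglia and endothelial cells. Single barcodes set the level in border macrophages, where 80 of 83 UMIs were in 1.

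Most G0s2 outside neutrophils lay in a small number of rich barcodes. There were 136 with at least 10 UMIs and they held 83.5% of the outside UMIs. Of these, 95 were ungated, 15, 21, 18 and 41 by set, with a median of 33 G0s2 UMIs and a highest of 144. In 77 of the 95 there was no UMI of S100a8 or S100a9, none had Mmp8, none was marked as a doublet, and 16 had 3 or more other neutrophil markers. Their G0s2 stood at 7715 CPM, a level set in part by the choice of barcodes with 10 or more UMIs. The genes with the largest ratio to all other barcodes outside neutrophils, with 20 CPM added, were after G0s2 itself Napsa, RGD1559482, Lilrb4, S100a4, Ccl6, Slfn4, Lst1, Spn and Ifitm1. Several were as common in neutrophils: Napsa was in 72 of 95 barcodes and 94 of 109 neutrophils, and Lst1 in 61 and 96. Others were not: RGD1559482 was in 59 of 95 and 7 of 109, S100a4 in 61 and 10, and Spn, the leukocyte surface glycoprotein sialophorin, in 48 and 2. No fixed marker list named these barcodes, and none is given to them here.

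**Figure D5:**
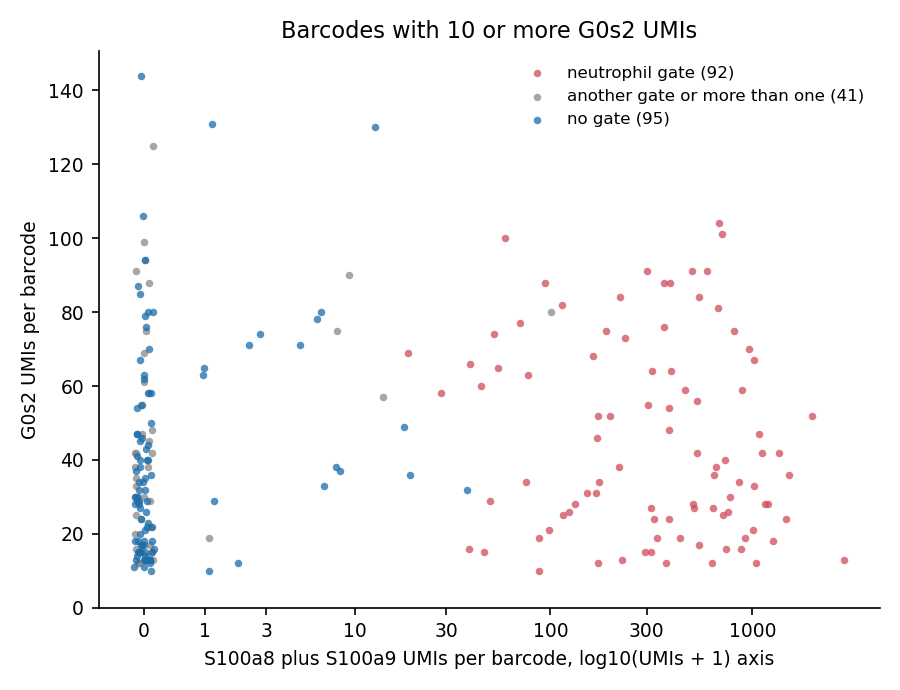
G0s2 UMIs per barcode against S100a8 plus S100a9 UMIs (log10(UMIs + 1) axis) for every barcode with at least 10 G0s2 UMIs. The 92 neutrophils reach 104 G0s2 UMIs, while 77 of the 95 barcodes with no gate sit at 0 UMIs of S100a8 and S100a9 and reach up to 144 of G0s2.

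To set the members among related genes, each set's CPM in neutrophils was compared with that in the 24651 other barcodes of a single type. A call needed a ratio of 2 or more, or of 0.5 or less, with an interval that left out 1, in every set. Of 12198 genes measured, with at least 20 UMIs together in every set, 1.45% were higher and 2.30% lower. S100a8, S100a9 and G0s2 were called higher, the first 2 by the gate's own choice. Mmp8 was not measured, since set 3 had 10 UMIs in all. The median log2 ratios over sets, with 5 CPM added, were 12.28 for S100a8, 12.73 for S100a9, 8.76 for G0s2 and 7.35 for Mmp8, against -0.78 over all measured genes (-0.57 with genes that had no UMI in neutrophils set at the limit of 3 counts). The G0s2 values were 8.52, 8.77, 8.75 and 9.25 in sets 1 to 4. A gene with few UMIs elsewhere enters this comparison only through neutrophils, so the counts for the lists below are a description.

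Of 12 other S100 genes 8 were measured, 2 higher and 1 lower, with a median log2 ratio of -0.20. S100a11, with 1258 UMIs in 107 of 109 neutrophils, was higher at 5.37. S100a6 was higher at 2.92, but 539 of its 748 UMIs were in the 18 barcodes that met another gate, and it was found in 22 neutrophils. S100b, a gene of glia, was lower at -4.43. The alarmin receptors and adaptors, not all of them sensors of calprotectin, gave no call. Of these 11 genes 9 were measured, with a median of -0.23 (0.40 with genes at 0 set at the limit). Tlr4 and Ager each had 2 UMIs in neutrophils, and Bsg, a surface receptor that binds S100a9, had 533 UMIs at -1.60, with 484 of them in the 18 barcodes.

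Among 9 other alarmins, all measured, 3 were higher and none lower, with a median of -1.48. Anxa1, annexin A1, was higher at 6.48 with 1727 UMIs in 105 neutrophils, Lgals3, galectin 3, at 3.78, and Il1b at 2.40. Of the 285 Lgals3 UMIs, 140 were in the 18 barcodes. Il18 had no UMI in neutrophils, where 0 UMIs allow up to 6.20 CPM against 73.7 CPM in the other types.

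Calls among granule genes other than Mmp8 were few, since most were too rare to measure. Of 12 specific-granule genes 5 were measured and 4 were higher, with a median of 6.06: Slpi, the secretory leukocyte protease inhibitor, at 8.45 with UMIs in 99 neutrophils, Pglyrp1, a peptidoglycan-binding protein, at 6.88, and Chi3l1 and Lcn2. For Lcn2, 64 of 89 UMIs were in the single set 4 barcode named above. Of 10 azurophil-granule genes 2 were measured and 1 was higher, the protease inhibitor Serpinb1a at 4.04. Of 10 gelatinase-granule and secretory-vesicle genes 6 were measured and none was called, with a median of 0.81. Fcer1g, a shared Fc receptor chain, was at 0.77 with 707 UMIs in 105 neutrophils.

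Receptors of neutrophils gave the most calls of the lists. The list also holds Il1rn, a secreted antagonist of the interleukin 1 receptor. Of its 17 genes 10 were measured, 8 higher and none lower, with a median of 4.97. Clec4d was at 7.36, and Csf3r, Il1r2, Trem1, C5ar1, Il1rn and Ccr1 were also among the higher genes. Of 6 NADPH oxidase genes, which make superoxide, 5 were measured and Ncf4 was higher at 3.31. Cybb was not called, at 2.81, with 90 of its 115 UMIs in the 18 barcodes.

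Related enzymes, the lipolysis genes and attractants mostly gave no call. Of 17 other metalloproteinase and inhibitor genes 6 were measured, none higher and 1 lower, with a median of -1.50 (-1.40 with genes at 0 set at the limit). Timp2, an inhibitor of these enzymes, was lower at -1.77, and Mmp9 had 55 UMIs in 21 neutrophils and was not measured. Of 14 genes of lipolysis and lipid droplets 10 were measured and 1 was higher, the droplet coat gene Plin2 at 4.10, with a median of -0.17 (0.37 with genes at 0 set at the limit). Pnpla2, the lipase that G0s2 inhibits, was too rare to measure, with 0 UMIs in neutrophils, which allows up to 6.20 CPM, and 0.125 CPM in the other types. Of 12 neutrophil attractants 6 were measured: Cxcl2, a ligand of Cxcr2, was higher at 2.11 with 1264 UMIs in 85 neutrophils, and the chemokine gene Ccl3 was lower at -1.62, with 392 of its 727 UMIs in the 18 barcodes.

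The genes whose level was most like that of each member were found by Pearson correlation of log2(CPM + 5) over 52 sums, 13 gates in each of 4 sets, among 13879 genes. Only 4 of the 52 sums are neutrophils and these set the values, so they are a description. For S100a8 they were Mcemp1 (0.987), Retnlg (0.982), AABR07034362.2 (0.981), Clec4d (0.979) and Mmp8 (0.978). For S100a9 they were Nos2, inducible nitric oxide synthase (0.979), Acod1, which makes itaconate (0.977), LOC100359515 (0.976), Mcemp1 (0.972) and S100a8 (0.972). For Mmp8 they were Clec4d (0.996), AABR07034362.2 (0.994), Retnlg (0.993), the haptoglobin gene Hp (0.993) and the lipopolysaccharide-binding protein gene Lbp (0.991). G0s2 had lower values, with S100a9 (0.819), Pglyrp1 (0.814), S100a8 (0.807), Acod1 (0.793) and Mcemp1 (0.792), and with Mmp8 it had 0.763.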

How the data were processed

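Droplet libraries (10x Genomics 3' kit, version 3, per the labels' protocols) gave 1 pooled matrix of UMI counts, deposited by the authors as whole numbers without normalisation. Per the file headers it was written by Cell Ranger 5.0.0, and the submitters' processing notes name Cell Ranger, STAR and Rnor_6.0. Gene annotation and cell-calling settings were not given in the sources used here. Promoters came from RefSeq on GRCr8, which matched 3 of the 4 genes by symbol and was used for sequences only. Counts of 3' tags were not scaled by gene length.

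The members, 11 gene lists and 15 marker lists were chosen with earlier results of these data known. Of 130 list entries 4, and of 158 marker entries 13, were not in the gene list. Barcodes were kept with at least 500 UMIs, 300 genes and at most 20% mitochondrial UMIs. Scrublet (scanpy 1.11.5, expected share 6%, random seed 1) called 211, 268, 129 and 334 doublets in sets 1 to 4, which stayed in unless stated. Types were gated with 3 markers at 2 UMIs, and the neutrophil gate came first. Among related types the one with the largest share of its markers was taken. UMIs were summed per gate and set. Poisson, Clopper-Pearson and conditional binomial intervals (scipy 1.17.1) were exact at 95%. Where counts were 0, limits used 3 counts. Genes named were the members, the 2 highest and 2 lowest called genes of each list, or its measured gene with most UMIs where none was called, the 5 most alike genes per member and the neutrophil markers. A gene that this rule names is not reported here. Other genes and barcodes named were picked for their role or after their values were seen. Calls were tested on simulated data for neutrophils against other gated barcodes: of 20483 genes, 100 of 100 raised 8-fold and 100 of 100 lowered 8-fold were called, and 0 unchanged genes. The changed genes were drawn from those expected, before the change, to have at least 20 neutrophil UMIs in every set. Simulated counts varied by counting error only. The simulation therefore does not describe rarer genes, and 2644 of the 12198 measured genes had no UMI in neutrophils. TMM factors came from edgeR 4.0.16. Alternatives covered the gate, the barcode filter, doublets, type gates, scaling, the count minimum, leaving out each set and leaving out the deepest barcodes.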

Additional observations from a re-analysis of the deposited data

How the results depend on the processing

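Of 120 alternative values for 17 results, 65 stayed within 1.5 times (counts) or the counting interval (values), and 55 moved. Shares, counts and ratios of highest to lowest have no sign that could turn. With a gate at 5 UMIs the neutrophil shares of S100a8, S100a9 and G0s2 UMIs were 98.6, 98.2 and 40.3%, and the outside levels of S100a8 and S100a9 were 1.59 and 3.66 CPM. At 20 UMIs they were 96.7, 96.4 and 33.6%, and 3.66 and 7.46 CPM. With a gate on at least 3 neutrophil markers that are not members (132 barcodes), the shares were 94.4, 93.7 and 45.1%, Mmp8 was at 97.9%, and the outside levels were 6.33 and 13.1 CPM. With at least 1000 UMIs, 500 genes and at most 10% mitochondrial UMIs they were 98.5, 98.5 and 41.6%, and 1.83 and 3.52 CPM. Thinned to 1000 UMIs, shares of microglia with a UMI were 0.251% (S100a8) and 0.398% (S100a9). Gate sizes ranged from 89 to 132 barcodes. Genes higher in neutrophils, 177, became 375 and genes lower, 281, became 5266 with means of per-barcode CPM, where no counting interval applies. Leaving out 1 set gave 189 to 339 higher, the most without set 3, and 304 to 393 lower. Without set 3, Mmp8 was measured and called higher. It was also called with a minimum of 1 UMI, and without the barcodes of another gate 406 genes were lower. TMM scaling gave 186 higher and 272 lower, and moved the median log2 ratio by 0.01. With the gate on other neutrophil markers, 261 genes were higher and 226 lower, which turns the balance of calls. Alternatives for the ratio of highest to lowest set in neutrophils were chosen after seeing the data. Without barcodes of another gate the ratios were 3.53 (S100a8), 3.79 (S100a9) and 3.41 (G0s2), and also without the deepest barcode of set 3 they were 2.497, 2.57 and 1.59. Without that barcode alone they were 1.54, 1.51, 2.04 (Mmp8) and 2.18, without the deepest of each set 1.38, 1.30, 2.51 and 2.41, and with barcodes weighted equally 2.17 for G0s2. The lowest and the highest set changed for S100a8, S100a9 and G0s2, and neither changed for Mmp8. The cause of these moves was not tested. No paired analysis was possible because no barcode set is tied to a titled sample and each title has 1 library. Depth limits Mmp8, with 10 UMIs in set 3, and all values of set 3 neutrophils, which rest on 8 barcodes.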

Other observations

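The 95 ungated barcodes with at least 10 G0s2 UMIs were looked at for further genes, all chosen after values were seen. Cxcr4, a chemokine receptor, was in 81 of 95 barcodes at 769 CPM, against 73 of 109 neutrophils at 519 CPM. Gngt2 was in 54 barcodes and 8 neutrophils, and the Fc receptor gene Fcgr3a in 33 and 5. Lyz2, lysozyme, was in 76 barcodes at 2993 CPM and in 106 neutrophils at 11166 CPM. Il1b was at 3628 CPM, against 5095 CPM in neutrophils and 959 CPM in the remaining barcodes. The neutrophil gene Retnlg had no UMI in the 95 barcodes, Csf3r was in 22 and Cxcr2 in 6. The microglial genes Cx3cr1 and Csf1r were in 13 and 46. The immunoglobulin gene Ighm had 1396 UMIs in 11 of the 95 barcodes.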
